A study of Mus musculus with 18 samples.

Results

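The genes described here are 10 genes that mark regulatory T cells or carry out their work: Foxp3, Il2ra, Ctla4, Ikzf2, Ikzf4, Tnfrsf18, Tnfrsf4, Lrrc32, Tigit and Il10. They were chosen by name, and all 10 were found among the 49585 genes of the count table. The table holds RNA-seq read counts of CD45+ leukocytes from 18 mouse libraries in 6 groups of 3. All mice were of the Kaede strain, aged 6 to 10 weeks, which express a protein that turns from green to red under UV light, so that cells present in a lit tissue can be found later. Mice of the inflamed groups received OT-II CD4+ T cells polarized toward Th1 in culture, then ovalbumin in complete Freund's adjuvant. They later received a local challenge with heat-aggregated ovalbumin (HAO) in the footpad, which inflames the joint, or in the ear pinna. The challenged tissue was lit on day 3 and cells were sorted 24 hours later. The 4 inflamed groups were joint nonmigrated and skin nonmigrated cells, which were Kaede red cells still in the joint or ear, and joint migrated and skin migrated cells, which were Kaede red cells found in the draining lymph node. The other groups, joint steady and skin steady, were labelled as cells that reached the node from joint or ear at steady state, with sample titles that hold PBS KG for the joint and naive for the ear. Whether the mice of these groups received the T cells or the ovalbumin is not stated in their labels. The study's methods describe PBS as a challenge in mice already given both, while naive is not explained. The joint steady and skin steady groups may thus differ in immunization as well as site. The sort described for the series took Kaede red cells, but the labels do not explain KG, and whether the joint steady and skin steady cells passed that gate is not settled by the sources used here. Each library of the inflamed groups came from a pool of 8 to 18 male and female mice, and the study asked what distinguishes cells that leave an inflamed joint from those that stay.

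Regulatory T cells are CD4+ T cells that restrain immune responses, and Foxp3 is the transcription factor that defines them. Ikzf2 (Helios) and Ikzf4 (Eos) are zinc finger factors that work with Foxp3. Il2ra (CD25) completes the high-affinity receptor for IL-2, a growth factor these cells need but make little of, and Ctla4 is a receptor that binds CD80 and CD86 on antigen-presenting cells and limits costimulation through CD28. Tnfrsf18 (GITR) and Tnfrsf4 (OX40) are costimulatory receptors, Lrrc32 (GARP) holds latent TGF-beta on the cell surface, Tigit is an inhibitory receptor for Pvr, and Il10 is a suppressive cytokine. Of these genes, Il2ra, Ctla4, Tnfrsf4, Tnfrsf18 and Tigit are also switched on in activated conventional T cells, Il10 is also made by macrophages, and dendritic cells can express Il2ra, so the genes are not markers of a single cell type in whole CD45+ cells.

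Library totals ran from 19239531 to 43814403 counts, and the 6 inflamed skin libraries (19239531 to 22528895) were shallower than the 6 inflamed joint libraries (35554698 to 43814403), so that depth and site cannot be told apart there. Every one of the 10 genes had at least 34 counts in every library. Summed over 9 T cell markers, levels were 195 to 393 CPM (the count scaled by the TMM-normalized size of its library) in joint nonmigrated cells, 363 to 1015 in skin nonmigrated cells and 1714 to 2684 in all 4 lymph node groups. The library labelled skin nonmigrated replicate 3 stood apart from its group, with a T cell sum of 363 CPM against 904 and 1015 and a monocyte and macrophage sum of 10559 CPM against 3781 and 2901. The steady groups differed in make-up from the inflamed migrated groups: their B cell marker sums were 2478 to 4398 CPM against 142 to 945. Fscn1, which defines mature migratory dendritic cells, had a mean of 2.76 CPM in joint steady and 5.23 CPM in skin steady cells, against 2419 CPM in joint migrated and 3224 CPM in skin migrated cells. Cacnb3, another such marker, had 4.80 and 4.25 CPM against 1021 and 1475 CPM. Comparisons of inflamed with steady cells therefore set side by side node populations that differ in more than inflammation, and the steady cells are called migrated here only by their label.

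**Figure D1:**
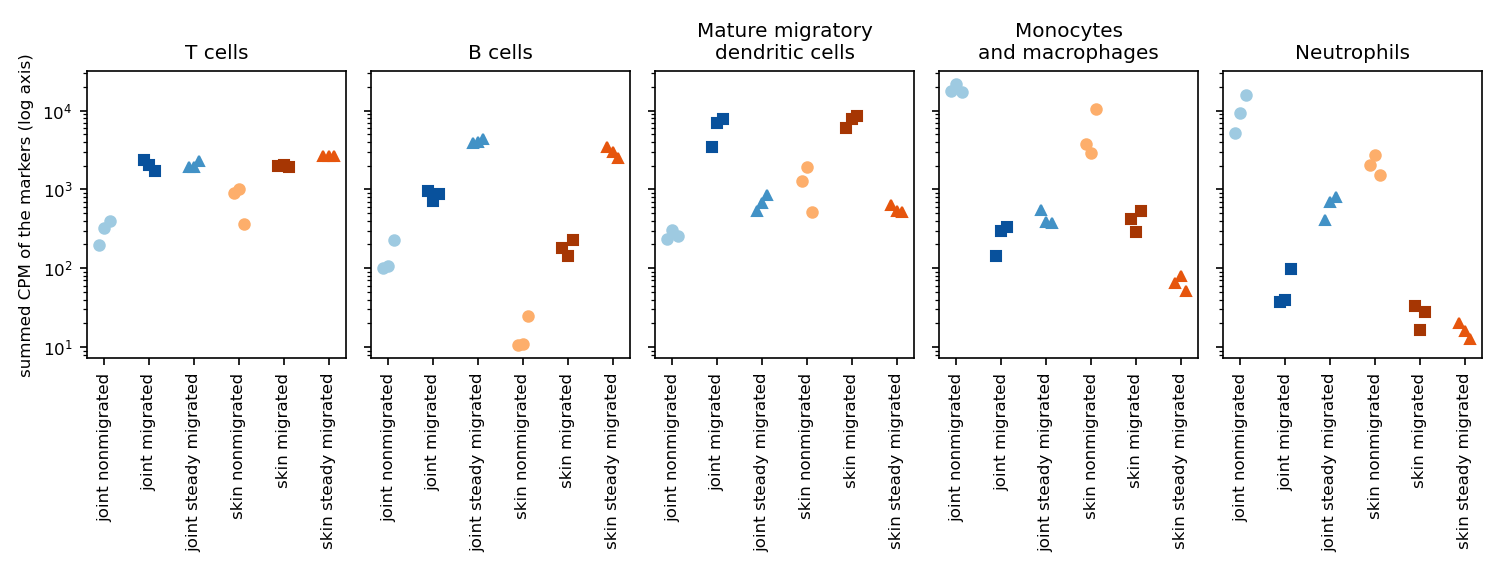
Summed CPM (log axis) of the marker genes of 5 cell types in each of the 18 libraries, by group; each point is a library, blue for joint and orange for skin. T cell sums of 1714 to 2684 CPM in the 4 node groups lie above the 195 to 1015 CPM of nonmigrated cells, while monocyte, macrophage and neutrophil sums run the other way between migrated and nonmigrated cells.

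Foxp3 lies on the X chromosome (mm10, chrX:7573644-7595245, plus strand), with exons that overlap Ppp1r3f, Gm36995 and Ccdc22 on the opposite strand and Flicr on the same strand. RefSeq (GRCm38.p6) gives windows before 2 starts of Foxp3, both inside the gene as annotated in GENCODE: chrX:7579426-7579675, which holds no match to any of the 4 patterns searched, and chrX:7580233-7580482, plus strand. The latter is shown because Foxp3 is the defining gene and IL-2 receptor signals reach genes through STAT factors; capitals mark a match to the STAT pattern TTCNNNGAA at -139 to -131 from the start and an overlapping match to the NFAT pattern TTTTCC at -141 to -136.
Foxp3: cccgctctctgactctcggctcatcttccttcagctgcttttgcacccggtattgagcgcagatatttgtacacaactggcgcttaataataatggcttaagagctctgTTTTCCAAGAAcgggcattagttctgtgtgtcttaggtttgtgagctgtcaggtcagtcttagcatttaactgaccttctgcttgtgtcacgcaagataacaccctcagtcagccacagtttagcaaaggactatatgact
Tnfrsf18 (chr4:156026164-156028895, plus strand) and Tnfrsf4 (chr4:156013843-156016612, plus strand) are neighboring genes of 1 receptor family, shown for comparison. The 250 bases before the RefSeq start of Tnfrsf18 (chr4:156026072-156026321, plus strand) reach past the start of the gene in GENCODE, and hold a STAT match at -99 to -91 and an NFAT match at -196 to -191, both in capitals, of which the STAT match lies inside the GENCODE gene, and those before Tnfrsf4 (chr4:156013445-156013694, plus strand) hold no match to any of the 4 patterns searched.
Tnfrsf18: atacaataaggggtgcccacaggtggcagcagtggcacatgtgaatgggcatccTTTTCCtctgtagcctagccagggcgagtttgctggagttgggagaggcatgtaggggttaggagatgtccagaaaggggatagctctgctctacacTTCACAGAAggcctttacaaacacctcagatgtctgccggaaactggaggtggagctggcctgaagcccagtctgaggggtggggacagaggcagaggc
Tnfrsf4: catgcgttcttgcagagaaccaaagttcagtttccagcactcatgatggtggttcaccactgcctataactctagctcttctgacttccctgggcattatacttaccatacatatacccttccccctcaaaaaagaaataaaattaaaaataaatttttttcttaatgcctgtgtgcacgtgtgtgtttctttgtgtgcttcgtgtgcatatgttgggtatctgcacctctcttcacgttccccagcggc
Il2ra (chr2:11642807-11693193, plus strand) has a pair of overlapping NF-kB matches at -201 to -192 and -200 to -191 in its window, chr2:11642542-11642791.
Il2ra: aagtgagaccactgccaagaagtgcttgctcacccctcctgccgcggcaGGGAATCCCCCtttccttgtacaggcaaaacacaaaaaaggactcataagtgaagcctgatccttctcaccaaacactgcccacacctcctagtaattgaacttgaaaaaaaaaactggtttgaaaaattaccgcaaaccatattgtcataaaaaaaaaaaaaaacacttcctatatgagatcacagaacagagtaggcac
Both strands were searched in the 250 bases before each of 32851 RefSeq starts. The STAT pattern was present in 7.02% of them, NFAT in 20.4%, NF-kB in 7.25% and the forkhead pattern TGTTTAC in 3.17%, so a match is a description of these windows and not a site of binding. RefSeq windows were at hand for 6 of the 10 genes.

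In the inflamed joint, 9 of the 10 genes were higher in cells that had left than in cells that stayed, by 5.70-fold (Ctla4) to 27.4-fold (Ikzf4), and Foxp3 itself was 15.4-fold higher. In inflamed skin, 7 of the 10 were higher, by 2.95-fold (Il2ra) to 4.07-fold (Ikzf2), with Foxp3 3.28-fold higher. Il10 did not differ beyond the replicate spread at either site. Over all 18156 genes tested, 16.2% were called higher and 18% lower in the joint comparison, and 15.8% higher and 19.6% lower in the skin comparison, where called means an adjusted p under 0.05 in edgeR's quasi-likelihood test and a log2 fold change beyond 1 in either direction. The median log2 fold change of the 10 genes was 2.95 in the joint and 1.59 in skin, against 0.03 and 0.01 over all genes. T cell markers moved in the same direction, with 9 of 9 called higher in the joint (median log2 fold change 2.85) and 7 of 9 in skin (median 1.49). So did markers of other cell types: those of mature migratory dendritic cells were called higher in 5 of 5 tested at both sites (medians 4.87 and 2.18), those of B cells in 5 of 5 at both sites (medians 2.41 and 5.13) and those of natural killer cells in 4 of 4 in the joint and 1 of 4 in skin. The part of these cells in the differences of the 10 genes was not tested. In bulk samples, more cells of a type and more RNA per cell cannot be told apart.

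**Figure D2:**
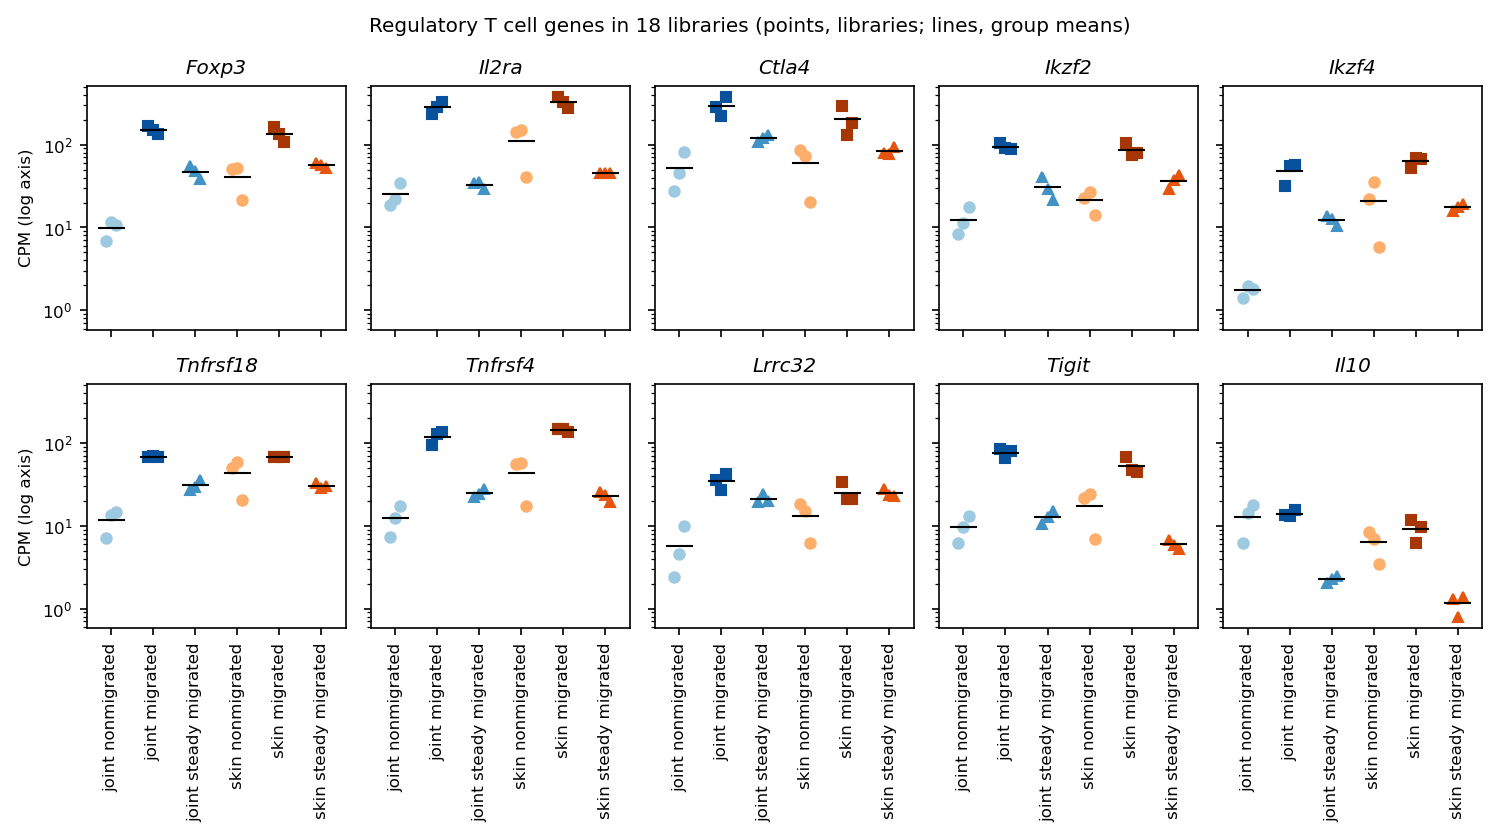
CPM (log axis) of each of the 10 genes in the 18 libraries by group; points are libraries and black lines group means. Foxp3 runs from 6.81 CPM in a joint nonmigrated library to 167 CPM in a joint migrated library, and Il10 is lowest in the steady groups, at 0.787 to 2.51 CPM.

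Foxp3 stood at 6.81, 11.7 and 10.8 CPM in joint nonmigrated replicates 1 to 3, at 167, 149 and 135 CPM in joint migrated and at 55.5, 47.6 and 38.7 CPM in joint steady cells. In skin it stood at 50.6, 51.4 and 21.2 CPM in nonmigrated, 164, 132 and 107 CPM in migrated and 59.9, 57.2 and 52.3 CPM in steady cells. The order of the group means was joint migrated, skin migrated, skin steady, joint steady, skin nonmigrated and joint nonmigrated. The libraries of the first pair overlapped, those of the steady groups overlapped each other, and joint steady overlapped skin nonmigrated, while skin migrated lay wholly above the steady groups and joint nonmigrated wholly below all others. The log2 difference between migrated and nonmigrated cells was 3.95 ± 0.30 (SE) in the joint (edgeR adjusted p = 1.35e-08) and 1.71 ± 0.27 in skin (adjusted p = 4.66e-05).

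The Foxp3 partners followed. Ikzf4 (chr10:128630843-128645991, minus strand, overlapped by Gm26876 on the opposite strand) stood at 1.42, 1.99 and 1.80 CPM in joint nonmigrated, 31.7, 54.7 and 56.5 CPM in joint migrated and 13.9, 12.5 and 10.5 CPM in joint steady cells. In skin the levels of Ikzf4 were 22.0, 35.4 and 5.77 CPM in nonmigrated, 52.2, 69.0 and 66.3 CPM in migrated and 15.9, 17.8 and 19.04 CPM in steady cells. Joint nonmigrated cells were thus the lowest of all groups for Ikzf4, and its joint difference, 4.78 ± 0.47 on the log2 scale (edgeR adjusted p = 2.39e-07), was the largest of the 10 genes. Ikzf2 (chr1:69531214-69687245, minus strand, overlapped by Gm29114 on the opposite strand) stood at 8.32, 11.3 and 17.8 CPM in joint nonmigrated, 103, 91.0 and 88.5 CPM in joint migrated and 40.3, 29.5 and 21.6 CPM in joint steady cells. Skin values of Ikzf2 were 22.5, 27.1 and 14.2 CPM in nonmigrated, 106, 74.7 and 78.5 CPM in migrated and 29.0, 37.4 and 43.5 CPM in steady cells. Migrated and nonmigrated libraries of Ikzf2 did not overlap at either site, with log2 differences of 2.92 ± 0.29 in the joint and 2.02 ± 0.29 in skin (edgeR adjusted p = 3.31e-07 and 1.49e-05).

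Il2ra stood at 18.5, 21.9 and 34.8 CPM in joint nonmigrated, 234, 280.3 and 329.9 CPM in joint migrated and 34.4, 35.0 and 29.4 CPM in joint steady cells. Skin values of Il2ra were 140.1, 151 and 40.9 CPM in nonmigrated, 374, 329.6 and 277 CPM in migrated and 45.2, 45.2 and 45.6 CPM in steady cells. Steady cells therefore lay near joint nonmigrated cells for Il2ra, and the migrated groups wholly above every other group. Its log2 difference between migrated and nonmigrated cells was 3.49 ± 0.36 in the joint and 1.56 ± 0.33 in skin (edgeR adjusted p = 4.43e-07 and 0.000761). Il2rb, the receptor chain shared with IL-15, was also higher in both, by 2.46 ± 0.33 in the joint and 1.15 ± 0.32 in skin (adjusted p = 7.57e-06 and 0.00505). Il2rg, the common gamma chain, differed by 0.81 and 0.60 on the log2 scale (adjusted p = 7.57e-06 and 0.000152), which is under the fold threshold. Transcripts of the ligand Il2 were scarce, at group means of 0.348 to 1.92 CPM, and were called higher in joint migrated cells (log2 fold change 1.73) but lower in skin migrated cells (-1.78) with overlapping libraries in skin.

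Ctla4 (chr1:60887000-60915832, plus strand) stood at 27.5, 45.4 and 82.2 CPM in joint nonmigrated, 288, 222 and 373 CPM in joint migrated and 108, 119 and 131 CPM in joint steady cells. Its skin values were 85.5, 72.1 and 20.4 CPM in nonmigrated, 291, 132 and 184 CPM in migrated and 79.1, 76.7 and 94.6 CPM in steady cells. Replicates spread widely for this gene, but migrated and nonmigrated libraries did not overlap, and the log2 differences were 2.51 ± 0.45 in the joint and 1.77 ± 0.44 in skin (edgeR adjusted p = 0.000143 and 0.00233). Its ligands did not follow it: Cd80 differed by -0.26 in the joint and -0.87 in skin and Cd86 by 0.37 and 0.00, with no call. Cd28, which competes for those ligands, was higher in migrated cells by 2.06 ± 0.35 in the joint and 1.81 ± 0.35 in skin (edgeR adjusted p = 8.87e-05 and 0.00029). Tigit (chr16:43648867-43664146, minus strand) stood at 6.27, 9.77 and 13.0 CPM in joint nonmigrated, 83.7, 65.0 and 80.4 CPM in joint migrated and 10.4, 12.7 and 15.2 CPM in joint steady cells. In skin Tigit stood at 21.4, 23.9 and 6.97 CPM in nonmigrated, 67.1, 47.3 and 44.7 CPM in migrated and 6.66, 5.88 and 5.32 CPM in steady cells. Tigit was called at both sites, by 2.98 ± 0.35 and 1.61 ± 0.34 on the log2 scale (edgeR adjusted p = 1.97e-06 and 0.00065). Of the other receptors for its ligands, Cd96 was higher at both sites (3.02 and 1.28), and Cd226 was called in the joint (1.35) and had a log2 fold change of 0.76 in skin, a difference between the sites that was not called itself (0.59 ± 0.26, edgeR adjusted p = 0.149). The ligand Pvr was not called at either site (0.23 and -0.19), and Nectin2 was lower in migrated cells at both (-2.15 and -1.13).

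Tnfrsf18 stood at 7.14, 13.3 and 14.9 CPM in joint nonmigrated, 68.1, 69.1 and 67.6 CPM in joint migrated and 26.8, 29.3 and 36.2 CPM in joint steady cells. In skin, Tnfrsf18 was at 50.4, 58.1 and 20.4 CPM in nonmigrated, 66.8, 67.4 and 68.3 CPM in migrated and 32.7, 28.2 and 29.8 CPM in steady cells. The 6 inflamed migrated libraries lay within 66.8 to 69.1 CPM, the narrowest range of the 10 genes there. Its log2 difference was 2.54 ± 0.30 in the joint (edgeR adjusted p = 1.9e-06) and 0.65 ± 0.28 in skin (adjusted p = 0.0584), where it was not called although the groups did not overlap. Without skin nonmigrated replicate 2 it was called (1.05, edgeR adjusted p = 0.0067), and leaving out each library in turn gave skin differences from 0.32 to 1.05. Tnfrsf4 stood at 7.36, 12.4 and 17.3 CPM in joint nonmigrated, 93.4, 129 and 136 CPM in joint migrated and 22.2, 24.3 and 27.4 CPM in joint steady cells. In skin, Tnfrsf4 was at 55.7, 56.5 and 17.4 CPM in nonmigrated, 146, 146 and 134 CPM in migrated and 25.7, 23.8 and 19.3 CPM in steady cells. Tnfrsf4 was called at both sites, by 3.28 ± 0.36 and 1.72 ± 0.34 (edgeR adjusted p = 8.13e-07 and 0.000353). Its ligand Tnfsf4 was scarce, at 4.63 against 0.549 CPM in the joint and 11.9 against 5.29 CPM in skin, and was called higher in migrated cells at both (log2 fold changes 3.09 and 1.17). Tnfsf18, the ligand of Tnfrsf18, was at 0 counts in all skin migrated libraries and at group means of at most 0.344 CPM elsewhere.

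Lrrc32 (chr7:98489283-98502181, plus strand) stood at 2.43, 4.59 and 9.98 CPM in joint nonmigrated, 35.7, 26.9 and 41.7 CPM in joint migrated and 19.4, 24.3 and 20.2 CPM in joint steady cells. In skin, Lrrc32 was at 18.1, 15.1 and 6.19 CPM in nonmigrated, 33.5, 21.03 and 21.05 CPM in migrated and 27.7, 23.8 and 22.9 CPM in steady cells. It was called in the joint (2.62 ± 0.42, edgeR adjusted p = 4.78e-05) and not in skin (0.94 ± 0.40, adjusted p = 0.0535), where skin nonmigrated replicate 3 was the lowest library. The skin difference passed when skin nonmigrated replicate 1 or 2 or skin migrated replicate 3 was left out (1.17 to 1.36, edgeR adjusted p = 0.0178 to 0.039). Leaving out each library in turn gave values from 0.60 to 1.36. Tgfb1 and other genes that handle TGF-beta were mostly lower in migrated cells. Tgfb1 differed by -1.08 in the joint and -1.30 in skin, Itgav by -1.40 and -1.60, and Nrros by -1.76 and -1.19, all called. Itgb8, which releases the active cytokine, was higher in joint migrated cells (2.57 ± 0.47, edgeR adjusted p = 0.000199) at 5.29 against 0.888 CPM. These genes are also expressed in macrophages and other myeloid cells, whose marker sum was 17070 to 21573 CPM in joint nonmigrated and 143 to 329 CPM in joint migrated cells; its part in those differences was not tested.

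Il10 (chr1:131019845-131024974, plus strand) departed from the other genes. It stood at 6.18, 14.2 and 17.6 CPM in joint nonmigrated, 13.6, 13.2 and 15.4 CPM in joint migrated and 2.05, 2.31 and 2.51 CPM in joint steady cells. In skin it stood at 8.46, 7.02 and 3.48 CPM in nonmigrated, 11.8, 6.24 and 9.66 CPM in migrated and 1.32, 0.787 and 1.37 CPM in steady cells. Migrated and nonmigrated libraries overlapped at both sites, with log2 differences of 0.15 ± 0.34 in the joint (edgeR adjusted p = 0.737) and 0.55 ± 0.36 in skin (adjusted p = 0.199). Both chains of its receptor were lower in migrated cells, Il10ra with log2 fold changes of -1.41 and -1.11 and Il10rb with -1.23 and -1.31, beside the fall in the monocyte and macrophage sum, whose part was not tested.

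**Figure D3:**
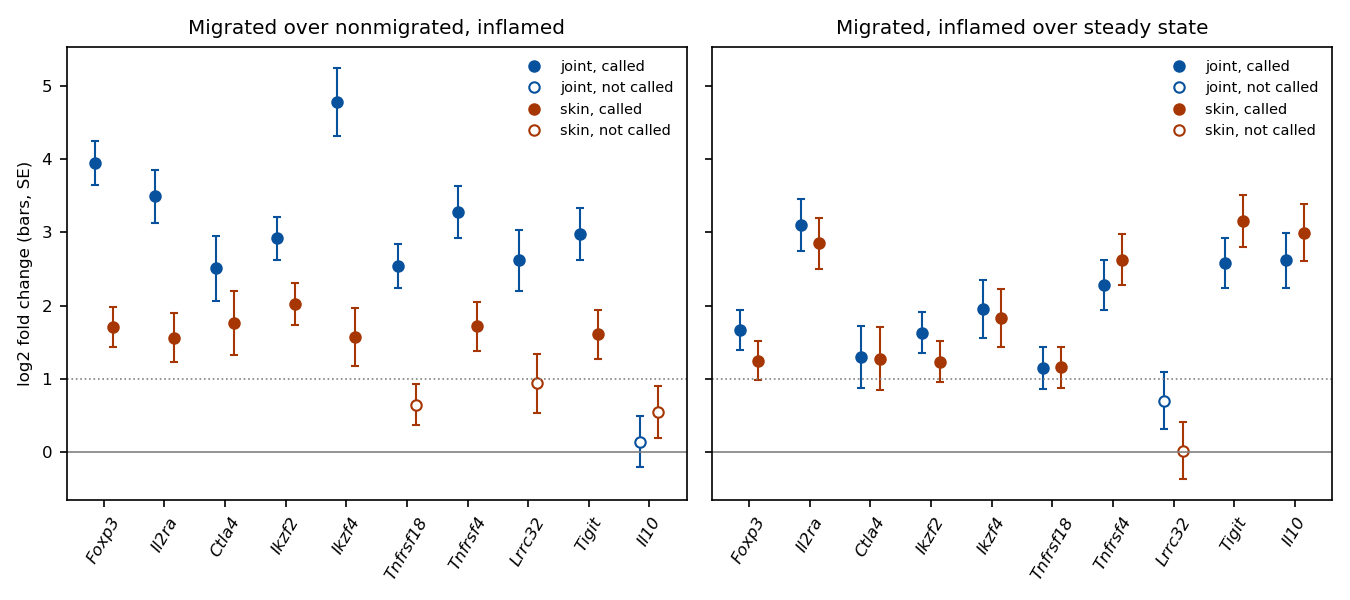
Log2 fold change with SE for each of the 10 genes, migrated over nonmigrated (left) and inflamed migrated over steady cells, labelled as migrated at steady state (right), in joint (blue) and skin (orange); filled points are called and the dotted line marks a log2 fold change of 1. On the left the joint value lies above the skin value for every gene but Il10; on the right the joint and skin values differ by at most 0.69 (Lrrc32).

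Whether the difference on leaving differed between the sites was tested directly, as the interaction of site and migration. The interaction was called for 5 of the 10 genes, each with a larger difference in the joint: Ikzf4 (3.20 ± 0.59 on the log2 scale, edgeR adjusted p = 0.00197), Foxp3 (2.23 ± 0.38, adjusted p = 0.00116), Il2ra (1.93 ± 0.47, adjusted p = 0.0127), Tnfrsf18 (1.88 ± 0.40, adjusted p = 0.00596) and Tnfrsf4 (1.56 ± 0.47, adjusted p = 0.0368). Of all genes, 5.92% were called in this direction, and 590 of 18156 in the other. The values for Lrrc32, Tigit, Ikzf2, Ctla4 and Il10 were 1.68, 1.37, 0.90, 0.74 and -0.40, with adjusted p of 0.0587 to 0.631. Of the 9 T cell markers, 4 were called in the same direction, with a median of 1.24 beside 1.62 for the 10 genes. Mature migratory dendritic cell markers were called in that direction in 4 of 5 (median 2.71) and conventional dendritic cell markers in 3 of 5 (median 2.00), while B cell markers were called the other way in 3 of 5 (median -1.96) and monocyte and macrophage markers in 2 of 6 (median -2.07). The part of these cells was not tested. The call for Il2ra was lost when only the 12 inflamed libraries were fitted (adjusted p = 0.056), as was that for Tnfrsf4 (adjusted p = 0.101). The call for Tnfrsf4 rested on the whole set of libraries and was lost when any of 9 of the 12 was left out. Without skin nonmigrated replicate 3, or without joint nonmigrated replicate 3, 8 genes were called. Calls in this direction over all genes were then 1767 of 18788 and 1186 of 18740, against 1074 of 18156 with every library.

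The difference between the sites was seen in the cells that stayed. In joint against skin nonmigrated cells, 6 of the 10 genes were lower in the joint (9.37% of all genes were) and Il10 was higher (6.28% of all genes were). Ikzf4 was 12.1-fold lower (log2 fold change -3.60 ± 0.45, edgeR adjusted p = 2.76e-05), Il2ra 4.42-fold (adjusted p = 0.000229), Foxp3 4.21-fold (adjusted p = 5.08e-05), Tnfrsf18 3.65-fold (adjusted p = 0.000197) and Tnfrsf4 3.50-fold (adjusted p = 0.000912), with no overlap between the libraries of the groups. Lrrc32 (-1.21 ± 0.41, adjusted p = 0.0327) and Il10 (1.01 ± 0.36, adjusted p = 0.0404) were called with overlapping libraries. The Lrrc32 call was lost without joint nonmigrated replicate 1 or 2 or skin nonmigrated replicate 1 or 2 (adjusted p = 0.109 to 0.176), and the Il10 call without joint nonmigrated replicate 2 or 3 or skin nonmigrated replicate 2 or 3 (adjusted p = 0.0533 to 0.176). Without skin nonmigrated replicate 3, the library that stood apart, 7 genes were lower in joint nonmigrated cells and none was higher, and 7 were again called higher in skin migrated cells. Over all genes, 2233 of 18788 were then lower and 1800 higher in joint nonmigrated cells, against 1702 and 1141 of 18156 with every library. In the skin comparison 2853 of all genes were then higher, against 2869. Ikzf2 (-0.77 ± 0.28, adjusted p = 0.048) was under the fold threshold, Tigit was at -0.85 ± 0.34 (adjusted p = 0.0676), and Ctla4 differed little between the group means (-0.20 ± 0.43). T cell markers were lower in joint nonmigrated cells too, with 7 of 9 called and a median of -1.27 beside -1.51 for the 10 genes, as were mature migratory dendritic cell markers, with 4 of 5 called and a median of -2.62, and conventional dendritic cell markers, with 4 of 5 and -1.46. B cell markers were higher, 5 of 5 with a median of 4.12. The part of T cell, dendritic cell or B cell content in these differences was not tested.

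Among cells that had left, none of the 10 genes was called between joint and skin, where 2.24% of all genes were; the count was also 0 with DESeq2 and at an unadjusted p under 0.05. The log2 differences, joint minus skin, ran from -0.39 ± 0.38 (Ikzf4) to 0.60 ± 0.35 (Il10), with Foxp3 at 0.16 ± 0.26. Tnfrsf4 was at -0.25, Il2ra at -0.22, Tnfrsf18 at 0.02, Ikzf2 at 0.13, Lrrc32 at 0.46, Tigit at 0.53 and Ctla4 at 0.54, with SEs of 0.27 to 0.42. Per kilobase of exon, which allows genes to be set against each other, joint migrated cells had Ctla4 at 126, Tnfrsf4 at 87.5, Tigit at 83.1, Il2ra at 49.3, Tnfrsf18 at 44.8 and Foxp3 at 32.9 CPM per kb. The 4 others lay between 7.41 and 10.7 CPM per kb. In skin migrated cells Tnfrsf4 came first, at 104 CPM per kb, followed by Ctla4 at 86.7, Tigit at 57.7, Il2ra at 57.3, Tnfrsf18 at 44.3 and Foxp3 at 29.4.

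Inflamed migrated cells were compared with the steady groups, where the T cell markers differed little in their median but not each in level. Cd4 had means of 378 against 213 CPM in the joint and 328 against 323 CPM in skin. Cd8a went the other way, at 184 against 333 CPM and 230 against 431 CPM. In both the joint and the skin comparison 9 of the 10 genes were higher in inflamed cells, all but Lrrc32. Of all genes, 15.6% were called higher and 6.65% lower in the joint comparison, and 20.5% higher and 14.3% lower in the skin comparison. The T cell markers had a median log2 fold change of 0.00 in the joint, with 1 of 9 lower and none higher, and -0.35 in skin, with none called, while the medians of the 10 genes were 1.81 and 1.55. The differences were largest for Il2ra, Tigit, Il10 and Tnfrsf4. Il2ra rose by 3.09 ± 0.35 in the joint and 2.85 ± 0.35 in skin (edgeR adjusted p = 3.15e-06 and 3.5e-06). Tigit rose by 2.58 ± 0.34 and 3.15 ± 0.36 (adjusted p = 1.61e-05 and 1.44e-06), Il10 by 2.62 ± 0.37 and 3.00 ± 0.39 (adjusted p = 2.94e-05 and 6.6e-06) and Tnfrsf4 by 2.28 ± 0.34 and 2.63 ± 0.35 (adjusted p = 5.13e-05 and 7.5e-06).

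Foxp3 and its partners changed less against steady state. Foxp3 was higher by 1.67 ± 0.27 in the joint and 1.25 ± 0.27 in skin (edgeR adjusted p = 0.000101 and 0.000768), Ikzf4 by 1.95 and 1.83, Ikzf2 by 1.63 and 1.24 and Tnfrsf18 by 1.15 and 1.16. Ctla4 was higher by 1.30 ± 0.43 and 1.28 ± 0.43 (adjusted p = 0.0215 and 0.0177), a call lost in the joint without joint migrated replicate 3 or joint steady replicate 1 or 2 (adjusted p = 0.0613 to 0.0798) and in skin without skin migrated replicate 1 or skin steady replicate 1 or 2 (adjusted p = 0.0522 to 0.0975). Lrrc32 differed by 0.71 ± 0.39 in the joint (adjusted p = 0.155) and 0.02 ± 0.39 in skin (adjusted p = 0.973). The interaction of site and inflammation was called for none of the 10 genes (3.67% of all genes), with values from -0.57 ± 0.47 (Tigit) to 0.69 ± 0.55 (Lrrc32) and no unadjusted p under 0.05. Foxp3 was at 0.42 ± 0.37 in that test, and Il10, Tnfrsf4, Tnfrsf18, Ctla4, Ikzf4, Il2ra and Ikzf2 at -0.38, -0.35, -0.01, 0.02, 0.12, 0.25 and 0.39. Between the steady groups none was called either (3.11% of all genes), with Tigit at 1.10 ± 0.34 (adjusted p = 0.0852) and Il10 at 0.98 ± 0.38 (adjusted p = 0.196) as the 2 genes at an unadjusted p under 0.05. The other values, joint steady minus skin steady, ran from -0.51 (Ikzf4) to 0.52 (Ctla4), with Ikzf2 and Foxp3 both at -0.26, Il2ra at -0.46, Lrrc32 at -0.22, Tnfrsf18 at 0.02 and Tnfrsf4 at 0.10. Site and a possible difference in immunization cannot be told apart between the steady groups, nor in the interaction of site and inflammation. Mature migratory dendritic cell markers were higher in inflamed cells, 4 of 5 tested in the joint and 5 of 5 in skin, as were the ligands Cd80 (3.98 and 5.55), Cd86 (2.46 and 2.86) and Pvr (1.46 and 1.12). Natural killer cell markers were higher in 4 of 4 at both sites (medians 2.52 and 1.51), and monocyte and macrophage markers in 6 of 6 in skin (median 2.75) and 0 of 6 in the joint. Conventional dendritic cell markers were higher in 4 of 5 in the joint and 3 of 5 in skin (medians 2.31 and 1.22). B cell markers were lower, 5 of 5 at both sites. The part of these cells in the differences of the 10 genes was not tested.

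To set the genes against the T cells of the same library, each level was taken relative to the mean log2 level of Cd3d, Cd3e and Cd3g, which encode chains of the T cell receptor complex. The Cd3 genes summed to 53.2 to 111 CPM in joint nonmigrated and 474 to 734 CPM in joint migrated cells. On this log2 scale Foxp3 was at -1.33, -1.32 and -1.70 in joint nonmigrated, -0.53, -0.37 and -0.19 in joint migrated and -1.72, -1.87 and -2.59 in joint steady cells. In skin it was at -1.07, -1.11 and -0.88 in nonmigrated, -0.18, -0.51 and -0.81 in migrated and -2.06, -2.10 and -2.27 in steady cells. Relative to the Cd3 genes, then, the mean of Foxp3 was higher in migrated than nonmigrated cells, by 1.09 ± 0.16 (SE) in the joint and 0.52 ± 0.20 in skin, and higher than at steady state by 1.70 ± 0.29 and 1.64 ± 0.19. Taken relative to Cd4 instead, the differences were 1.81 and 0.86 between migrated and nonmigrated cells and 0.85 and 1.22 against steady state, so their size depends on the T cell gene used. Relative to the Cd3 genes the groups did not overlap in any of these 4 comparisons, and the exact two-sided permutation p was 0.1 in each, the smallest that 3 against 3 libraries can give.

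The other genes did not all follow Foxp3 on this scale, and are given without a test. The share of all genes without overlap on this scale was not computed, so the counts below have no background beside them. In the joint, Ikzf4 was also higher in migrated than nonmigrated cells with no overlap (by 1.79 ± 0.49), Il2ra (0.65 ± 0.36), Tnfrsf4 (0.45 ± 0.36), Tigit (0.14 ± 0.21) and Ikzf2 (0.10 ± 0.17) overlapped, and Lrrc32, Ctla4 and Tnfrsf18 were at -0.08 to -0.28. Il10 was lower without overlap, by -2.60 ± 0.28. Its own log2 difference was 0.15 ± 0.34, while the Cd3 genes summed to 53.2 to 111 CPM in joint nonmigrated and 474 to 734 CPM in joint migrated cells. Because Il10 is also made by macrophages, its value on this scale is not a level in T cells. In skin, 5 of the 10 were higher without overlap (Foxp3, Il2ra, Ikzf2, Tnfrsf4 and Tigit, by 0.49 to 0.77), and Tnfrsf18 was lower without overlap (-0.49 ± 0.05). Against steady state all 10 were higher without overlap at both sites, from 0.71 (Lrrc32) to 3.10 (Il2ra) in the joint and from 0.40 (Lrrc32) to 3.53 (Tigit) in skin. For Lrrc32 in the joint the gap was small, with joint migrated replicate 2 at -2.83 and joint steady replicate 2 at -2.84. Only Foxp3 was also taken relative to Cd4, whose means were 378 CPM in joint migrated and 213 CPM in joint steady cells. Between the nonmigrated groups, Foxp3 (-0.43), Ikzf4 (-1.63) and Tnfrsf18 (-0.23) were lower in the joint without overlap, and Il10 (2.52), Ctla4 (1.46), Tigit (0.84) and Ikzf2 (0.77) were higher. The limit given for Il10 holds here too.

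**Figure D4:**
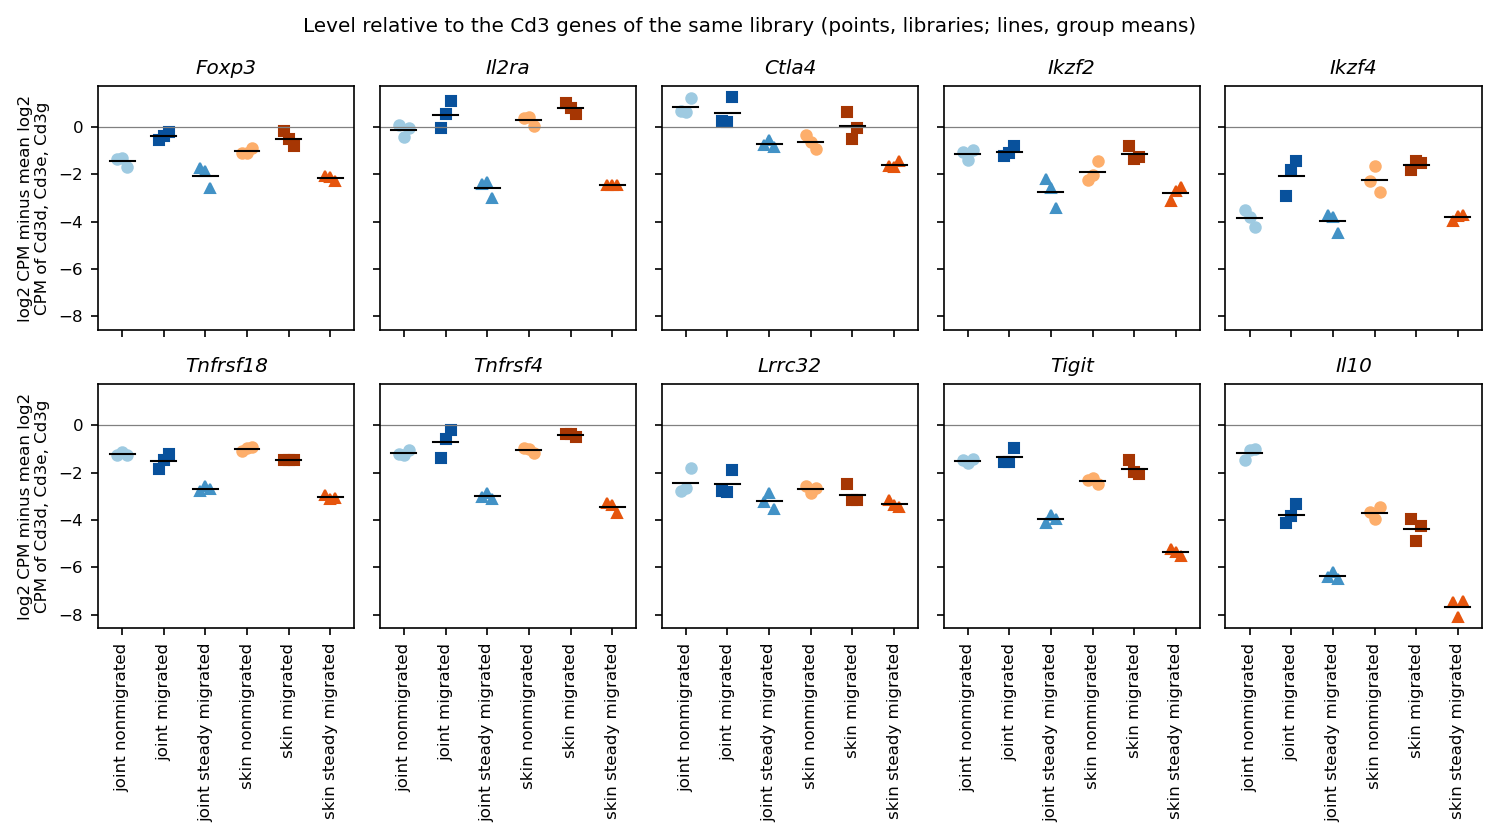
Log2 CPM of each of the 10 genes minus the mean log2 CPM of Cd3d, Cd3e and Cd3g in the same library, by group; points are libraries and black lines group means. The steady groups lie below the migrated groups of the same site for all 10 genes, and Foxp3 is higher in migrated than nonmigrated cells at both sites.

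Genes whose levels ran most like Foxp3 over the 18 libraries were Pkp3 (Pearson r = 0.976), Rnf43 (0.970), Gata3 (0.969), Ncmap (0.964) and Abcb1a (0.962), of 13546 genes with a mean of at least 1 CPM. Among the 10 genes, Ikzf4 (0.959), Ikzf2 (0.952) and Tnfrsf18 (0.942) were closest to it and Tigit (0.734) and Il10 (0.072) farthest, and Cd3d, Cd3e and Cd3g were at 0.826, 0.837 and 0.844. The libraries share their groups, depth and cell make-up, so these are descriptions.

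A further 21 genes associated with regulatory T cells or their effector forms moved less uniformly. In the joint, 11 of 21 were higher in migrated cells and 4 lower, with a median log2 fold change of 1.32. In skin 6 were higher and 6 lower, with a median of 0.22. The shares over all genes were 16.2% higher and 18% lower in the joint and 15.8% and 19.6% in skin. The clearest rises in the joint were Izumo1r, of the folate receptor family (4.16 ± 0.27), Itgae, the CD103 integrin chain (3.84 ± 0.32), and Klrg1, an inhibitory receptor (3.19 ± 0.34). Their edgeR adjusted p were 2.6e-09, 4.26e-08 and 7.27e-07. In skin they were Izumo1r (3.15 ± 0.26), Klrg1 (2.25 ± 0.34) and the costimulatory receptor Icos (1.61 ± 0.43, adjusted p = 0.00403), whereas Itgae was not called (0.31 ± 0.29); its difference between the sites was called in the interaction (3.53 ± 0.42, adjusted p = 6.74e-05). The genes that fell most clearly were Entpd1, the CD39 ectoenzyme (-3.13 in the joint and -4.03 in skin), Fgl2 (-1.86 and -2.53), Nrp1 in the joint (-1.84) and Il1r2 in skin (-4.12). These are also expressed in macrophages or neutrophils, whose summed markers were lower in migrated cells at both sites, and their part was not tested. Against steady state, 16 of the 21 genes were higher and 1 lower in the joint (median 1.99), and 17 higher and 1 lower in skin (median 2.32). All genes were there called higher in 15.6% and lower in 6.65% in the joint, and in 20.5% and 14.3% in skin. Of the 18 ligands and partners of the 10 genes, 7 were higher and 6 lower in joint migrated than nonmigrated cells, and 4 higher and 8 lower in skin, the last including Tnfsf18 at 0 counts in one group.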

How the data were processed

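Leukocytes were sorted and sequenced as paired 100 bp reads. The authors trimmed reads with Trim Galore, aligned them with TopHat2 to mm10 with Ensembl release 87 gene models and counted them per gene with HTSeq under default settings, and these raw counts are the deposited unit. Strandedness of the libraries is not given in the sources used here, so reads of a gene and an opposite-strand partner may not be separated. The 5 HTSeq summary lines (11.3% to 15.1% of a column) were removed, 49326 of 49585 genes matched GENCODE M21, and all 18 columns were used. No pair of columns was identical, and replicates differed by more than counting error (chi-square per degree of freedom 16.2 to 129.6). For the steady groups, where separate pools are not stated, p-values measure the spread between libraries, which may be technical. A count of 3, the floor used, equals 0.0616 to 0.18 CPM and covers counting error only.

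Genes were tested with edgeR 4.0.16 (limma 3.58.1, R 4.3.3; quasi-likelihood F test, TMM, minimum count 10, group as the only factor) in 1 fit of 18 libraries, with Benjamini-Hochberg adjustment over the 18156 genes tested. Adjusted p under 0.05 and an absolute log2 fold change above 1, the threshold in the study's methods, made a call. SE is the log2 fold change over the square root of F. Levels relative to Cd3 genes used a pseudocount of 0.1 CPM, and likeness to Foxp3 used the same scale. Replicate numbers in the labels were tested for pairing: deviations of same-numbered libraries correlated at 0.0161 to 0.193, not all above 0.1. Those of differently numbered libraries correlated at -0.188 to 0.0512, so pairing was not excluded. The main fit used no block, and fits with a replicate block were run as alternatives. Alternatives were DESeq2 1.42.0, its size factors, no filter, other sample sets, thinned counts, a replicate block, a stricter threshold, another pseudocount, Cd4 as the denominator and leaving out each library. The fit was tested on simulated data.

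The text names all 10 genes in each comparison of groups, for each list the 3 genes called up and the 3 called down at the lowest adjusted p between migrated and nonmigrated cells, ligands beside the gene they bind, and the 5 genes most like Foxp3. The 10 genes and the lists were chosen with earlier results of these data known. Sequences are from RefSeq (GRCm38.p6), and coordinates from mm10.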

Additional observations from a re-analysis of the deposited data

Results flagged for a closer look

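For 5 genes the difference between migrated and nonmigrated cells was larger in the joint than in skin by the interaction test itself, on the log2 scale: Foxp3 by 2.23 (edgeR adjusted p = 0.00116), Il2ra by 1.93 (adjusted p = 0.0127), Ikzf4 by 3.20 (adjusted p = 0.00197), Tnfrsf18 by 1.88 (adjusted p = 0.00596) and Tnfrsf4 by 1.56 (adjusted p = 0.0368). All 5 were called lower in joint than skin nonmigrated cells, and none was called between the migrated groups. Markers of other cells moved with them in the interaction, 4 of 9 being called for T cells, 4 of 5 for mature migratory dendritic cells (median 2.71) and 3 of 5 for conventional dendritic cells, and inflamed skin libraries were the shallower ones; the part of these cells was not tested, and counts thinned to a common depth are given next.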

How the results depend on the processing

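Alternatives were run for the 10 genes and for Foxp3 relative to Cd3 genes, and not for the other genes named; no value called among the 10 genes changed its direction under any of them. Between the steady groups 1 of the 10 genes, Tigit, was called with the DESeq2 Wald test, with no filter on low counts, with 12 libraries in the fit, with only the groups compared and with a replicate block within site. In the same order, calls over all genes were 742 of 16527, 639 of 30935, 665 of 17107, 810 of 15697 and 671 of 18156. The main fit had 565 of 18156. The interaction of site and migration was called for 3 genes with 12 libraries in the fit or only the groups compared. Il2ra and Tnfrsf4 lost their calls there. It was called for 0 at an adjusted p under 0.001, for 7 with DESeq2, for 6 with thinned counts and for 4 to 8 without 1 library. Over all genes, positive interaction calls numbered 665 of 16777 with 12 libraries, 178 of 18156 at the stricter threshold and 1308 of 18926 with DESeq2. They numbered 931 of 16419 with thinned counts and 736 to 1767 without 1 library, against 1074 of 18156 in the main fit. Leaving out 1 library gave 9 in the joint and 7 to 9 in the skin comparison of migrated with nonmigrated cells. It gave 5 to 8 between nonmigrated groups and 8 or 9 against steady state at either site. The cause was not tested. Between nonmigrated groups the calls over all genes then ran from 2250 to 4033, against 2843 in the main fit. Relative to Cd4 in place of the Cd3 genes, Foxp3 differed by 1.81 (joint) and 0.86 (skin) between migrated and nonmigrated cells and by 0.85 and 1.22 against steady state. Without 1 library these differences, taken against the Cd3 genes, were 0.96 to 1.17, 0.36 to 0.68, 1.43 to 1.87 and 1.48 to 1.80.

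Whether the replicate numbers pair the libraries is not settled. With a replicate block within site the interaction was called for 7 genes, and with a block over all groups for 4. In the same order, positive interaction calls over all genes numbered 1150 and 946 of 18156, against 1074 in the main fit. The nonmigrated groups differed for 6 and 5 genes. Calls over all genes between those groups numbered 3096 and 2754 of 18156, against 2843 in the main fit. Lrrc32 was called in skin with the block within site (adjusted p = 0.00689). Taking differences of same-numbered libraries cannot move the mean differences of Foxp3 relative to Cd3 genes, which stay at 1.09 and 0.52 by arithmetic. Thinning to the smallest library changed no call of the interaction but that of Tigit.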

Other observations

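Among 19 transcription factors and signalling genes that act around Foxp3 and IL-2, 9 were higher and 1 lower in joint migrated than nonmigrated cells (median log2 fold change 0.95), and 8 higher and 2 lower in skin (median 0.76). The shares over all genes were 16.2% higher and 18% lower in the joint and 15.8% and 19.6% in skin. The clearest rises in the joint were Foxo1, which keeps naive and regulatory T cells quiescent and recirculating (1.98 ± 0.13, edgeR adjusted p = 3.4e-09), Socs2, a feedback inhibitor of cytokine signals (4.08 ± 0.37, adjusted p = 9.95e-08), and Ikzf3 (2.78 ± 0.30, adjusted p = 6.79e-07). In skin they were Irf4 (2.30 ± 0.20, adjusted p = 6.79e-08), Foxo1 (1.39 ± 0.13) and Ikzf3 (1.84 ± 0.29). The immediate-early gene Nr4a1 was lower in joint migrated cells (-1.31 ± 0.36, adjusted p = 0.00582) at 408 against 1009 CPM, and was called higher in skin migrated cells (1.13 ± 0.37, adjusted p = 0.0139) at 223 against 102 CPM with overlapping libraries; the difference between the sites was called in the interaction (-2.44 ± 0.52, adjusted p = 0.00555). In skin Runx1 (-2.06 ± 0.11) and Cish (-1.24 ± 0.33, overlapping libraries) were lower.

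Against steady state, 4 of the 19 were higher and 1 lower in the joint and 5 higher and 4 lower in skin. The shares over all genes were 15.6% higher and 6.65% lower in the joint and 20.5% and 14.3% in skin. Socs2 differed most among those named, at 252 against 3.55 CPM in the joint and 395 against 4.18 CPM in skin (log2 fold changes 6.15 ± 0.41 and 6.57 ± 0.42, edgeR adjusted p = 8.89e-09 and 2.33e-09). Cish, another such inhibitor and a known target of IL-2 signals, was higher by 1.45 ± 0.33 and 1.68 ± 0.34 (adjusted p = 0.00209 and 0.00047). Foxo1 was lower in skin (-1.11 ± 0.13), and in the joint its difference of -0.87 was under the fold threshold. Mature migratory dendritic cell markers were also called higher against steady state, in 4 of 5 tested in the joint and 5 of 5 in skin. Which cells carried Socs2 was not tested, nor was the part of cell make-up in the differences of the 19 genes.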
